A study of Mus musculus with 2 samples.

Results

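The genes described here are 10 mouse genes of antigen presentation by major histocompatibility complex (MHC) class I. They comprise 6 heavy-chain genes (H2-K1, H2-D1, H2-T3, H2-T22, H2-T23 and H2-M2), the light chain B2m and 3 genes of peptide loading (Tap1, Tap2 and Tapbp). They were chosen by name, with earlier results of these data known, and all 10 were found among the 17829 genes of the deposited count matrix. The cells were live EpCAM-positive epithelial cells sorted from the colon of C57BL/6 mice and profiled with droplet-based 3′ single-cell RNA sequencing. There was 1 library of genotype Mettl14 KO and 1 of genotype Mettl14 WT, both on the same strain and with no treatment named. Mettl14 encodes a subunit of the enzyme that writes N6-methyladenosine on RNA. The labels give neither the deleted exons, nor what drives the deletion, nor the age or number of the animals, and the series text gives 2 weeks without saying from when.

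Class I molecules consist of a heavy chain and beta-2-microglobulin and display peptides from inside the cell to CD8+ T cells and natural killer cells. Peptides cut by the proteasome are pumped into the endoplasmic reticulum by the transporter TAP and are fitted into the groove of the heavy chain with the help of tapasin and general chaperones. The classical heavy chains are made by nearly all nucleated cells, and interferons and NF-κB raise them through shared promoter elements. The nonclassical heavy chains have narrower expression, and some, such as the thymus leukaemia antigen encoded by H2-T3, are known from the intestinal epithelium.

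The promoters of the classical genes carry the elements for which class I regulation is known, and the stretches below show how far the members share them. Bases come from RefSeq promoter windows on GRCm38.p6, run 5′ to 3′ along the gene's strand, and cover chr17:34000358-34000457 (minus strand) for H2-K1, chr17:35262924-35262953 (plus) for H2-D1, chr2:122147548-122147647 (plus) for B2m, chr17:37483599-37483698 (minus) for H2-M2 and chr17:36190250-36190279 (minus) for H2-T3. Capitals mark matches, on either strand, to GGGATTCCC (an NF-κB-type site), AGTTTCNNT and GAAANNGAA (parts of the interferon response element), TGACG (a cyclic AMP response element core) and CCAAT, which reads ATTGG on the other strand.
H2-K1: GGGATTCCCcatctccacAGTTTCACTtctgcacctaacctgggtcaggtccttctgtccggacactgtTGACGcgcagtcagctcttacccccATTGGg
H2-D1: GGGATTCCCcatctcctcAGTTTCACTtct
B2m: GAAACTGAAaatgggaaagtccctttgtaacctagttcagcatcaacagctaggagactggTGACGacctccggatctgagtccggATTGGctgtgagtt
H2-M2: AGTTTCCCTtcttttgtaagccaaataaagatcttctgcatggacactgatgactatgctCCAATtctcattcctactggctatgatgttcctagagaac
H2-T3: AGTTTCACTttttgctctctgtaccattgt
The H2-K1 stretch starts 110 bases before the RefSeq start of the gene and that of H2-D1 170 bases before it. Counted from 1 at the 5′ end, the first 30 bases of the pair differ only by A17T, the H2-K1 base standing first. Over 100 bases the pair was identical at 89. The printed H2-D1 and H2-T3 bases lie inside an exon of a GENCODE transcript that starts further upstream.

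Matches were counted in the 250 bases before each of 32851 RefSeq starts. GGGATTCCC was found before 0.301% of starts and, among the members, only before H2-K1 and H2-D1. Only these exact letters were sought, so other forms of an NF-κB site, in B2m or elsewhere, were not counted. AGTTTCNNT was found before 4.12% of starts and before H2-K1, H2-D1, H2-T3, H2-T22 and H2-M2. GAAANNGAA was found before 7.13% of starts and before B2m, H2-T22 and H2-T23. In H2-T22 the matches to AGTTTCNNT and GAAANNGAA overlap. TGACG occurred before 17.8% of starts and before 6 of the members, and CCAAT before 33.8% of starts. No window for Tap2 was at hand. A match describes the letters and is no evidence of a factor bound there.

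The Mettl14 KO library held 3653 cells, 37635762 unique molecular identifiers (UMIs, each counting 1 captured RNA molecule) and a median of 9119 UMIs per cell. The Mettl14 WT library held 4210 cells, 60205658 UMIs and a median of 12094 UMIs per cell. An Epcam UMI was found in 99.2% of KO cells and 97.8% of WT cells. The libraries shared 2 cell barcodes. UMIs were summed over cells and divided by their total, and levels are given as CPM (UMIs per 1000000 UMIs). A level of one gene is set against that of another only as a count of tags, which is not divided by gene length. Throughout, a ratio is log2 of KO CPM over WT CPM with its 95% interval in brackets. Mettl14 itself had 201 UMIs (5.34 CPM) in KO cells and 632 UMIs (10.5 CPM) in WT cells, a ratio of −0.97 (−1.21 to −0.74). Since the deleted exons are not given, a 3′ count need not report on them. All intervals cover counting error only. With 1 library per genotype there is no replicate check and no test, and each difference below is between these libraries.

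Over all cells the classical heavy chain H2-D1, the loading genes Tap1 and Tapbp and the nonclassical H2-M2 were at least 1.5-fold higher in the KO library, and the nonclassical H2-T3 and H2-T23 were at least 1.5-fold lower. H2-K1, H2-T22, B2m and Tap2 passed this size in neither direction. Of the 13334 genes with at least 50 UMIs over both libraries, 17.0% were at least 1.5-fold higher in KO and 16.7% at least 1.5-fold lower, against 4 and 2 of the 10 members. Since the members were chosen with earlier results of these data known, the shares are only set side by side. The median ratio of the members was 0.29 and that of all measured genes −0.04. Summed, the members made up 1037 CPM in KO cells and 747 CPM in WT cells, a ratio of 0.47 (0.45 to 0.49). The 10 genes thus did not all differ in the same direction.

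The classical heavy chains H2-K1 and H2-D1 present peptides to CD8+ T cells. H2-D1 (chromosome 17, 35262730 to 35267499, plus strand, GRCm38) had 13350 UMIs in KO cells, or 355 CPM (349 to 361), and 11534 UMIs in WT cells, or 192 CPM (188 to 195). Its ratio was 0.89 (0.85 to 0.92), a 1.85-fold higher level in KO. H2-K1 (chromosome 17, 33996017 to 34000347, minus strand) had 11160 UMIs in KO cells, or 297 CPM (291 to 302), and 15348 UMIs in WT cells, or 255 CPM (251 to 259). Its ratio of 0.22 (0.18 to 0.25) was above 0, and its interval did not meet that of H2-D1. There were 1.20 H2-D1 UMIs per H2-K1 UMI in KO cells and 0.752 in WT cells, a log2 difference of 0.67 (0.62 to 0.72, from a normal approximation to the log counts). The classical pair thus stood in the reverse order in the libraries, with H2-D1 holding more UMIs than H2-K1 in KO and fewer in WT. Of the last 400 bases of H2-D1, cut into 60-base windows, 6.45% of the windows also occur in transcripts of another gene, against 0% for H2-K1.

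Among the nonclassical heavy chains the ratios ran from that of H2-T3, the lowest of the members, to that of H2-M2, the highest. H2-M2 (chromosome 17, 37480851 to 37483552, minus strand), a gene of the H2-M region whose role is little known, had 947 UMIs in KO cells, or 25.2 CPM (23.6 to 26.8), and 22 UMIs in WT cells, or 0.365 CPM (0.229 to 0.553). Its ratio of 6.11 (5.50 to 6.79) ranked 23rd from the top of the 13334 measured genes. An H2-M2 UMI was found in 485 KO cells (13.3%) and in 14 WT cells (0.333%). After every cell was thinned to 3000 UMIs, the shares were 5.88% (5.13 to 6.70) in KO and 0.0743% (0.0153 to 0.217) in WT. No KO cell held more than 17 H2-M2 UMIs, and 102 KO cells held 50% of them, so the level did not rest on a few cells.

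H2-T3 (chromosome 17, 36185572 to 36190287, minus strand) encodes the thymus leukaemia antigen, a ligand of CD8αα on intestinal lymphocytes. It had 41 UMIs in KO cells, or 1.09 CPM (0.782 to 1.48), and 380 UMIs in WT cells, or 6.31 CPM (5.69 to 6.98). The ratio was −2.53 (−3.04 to −2.07), a 5.79-fold lower level in KO. H2-T23 (chromosome 17, 36029773 to 36032855, minus strand) encodes Qa-1, which is read by CD94/NKG2 receptors of natural killer and T cells. It had 1151 UMIs, or 30.6 CPM, in KO cells and 2998 UMIs, or 49.8 CPM, in WT cells, a ratio of −0.70 (−0.80 to −0.60). The ranges of counting error of H2-T3 and H2-T23 do not overlap between the libraries. H2-T22 (chromosome 17, 36037128 to 36042747, minus strand), a ligand of some γδ T cell receptors, had 645 UMIs, or 17.1 CPM, in KO cells and 866 UMIs, or 14.4 CPM, in WT cells, a ratio of 0.25 (0.10 to 0.40). Of the 60-base windows near its 3′ end, 56.3% also occur in H2-T10, so its count may hold reads of that relative. For H2-T23 the shared windows were 28.7%, shared most with transcripts of Rab33b, Hook2 and Gm42508. H2-T22 and H2-T23 overlap the antisense gene A930015D03Rik, and whether counting used strand is not given in the sources used here.

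B2m (chromosome 2, 122147686 to 122153083, plus strand), the light chain of class I molecules, had 8156 UMIs, or 217 CPM (212 to 221), in KO cells and 10465 UMIs, or 174 CPM (171 to 177), in WT cells. Its ratio of 0.32 (0.28 to 0.36) lay between those of H2-K1 and H2-D1. Tapbp (chromosome 17, 33915899 to 33929292, plus strand), which encodes tapasin, the bridge between the heavy chain and the transporter, had 2918 UMIs, or 77.5 CPM, in KO cells and 2626 UMIs, or 43.6 CPM, in WT cells, a ratio of 0.83 (0.75 to 0.91). Tap1 (chromosome 17, 34187553 to 34197225, plus strand) had 442 UMIs, or 11.7 CPM, in KO cells and 411 UMIs, or 6.83 CPM, in WT cells, a ratio of 0.78 (0.59 to 0.98). The other transporter subunit, Tap2 (chromosome 17, 34203527 to 34216321, plus strand), had 235 UMIs, or 6.24 CPM, in KO cells and 343 UMIs, or 5.70 CPM, in WT cells, a ratio of 0.13 (−0.11 to 0.38) whose interval holds 0. Tap1, Tap2, Tapbp and B2m overlap other genes, all but Zbtb22 (which overlaps Tapbp) on the opposite strand. In male cells alone, and with each cluster weighted equally, the ratio of Tap1 was 0.52 and 0.56, under the size set here.

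**Figure D1:**
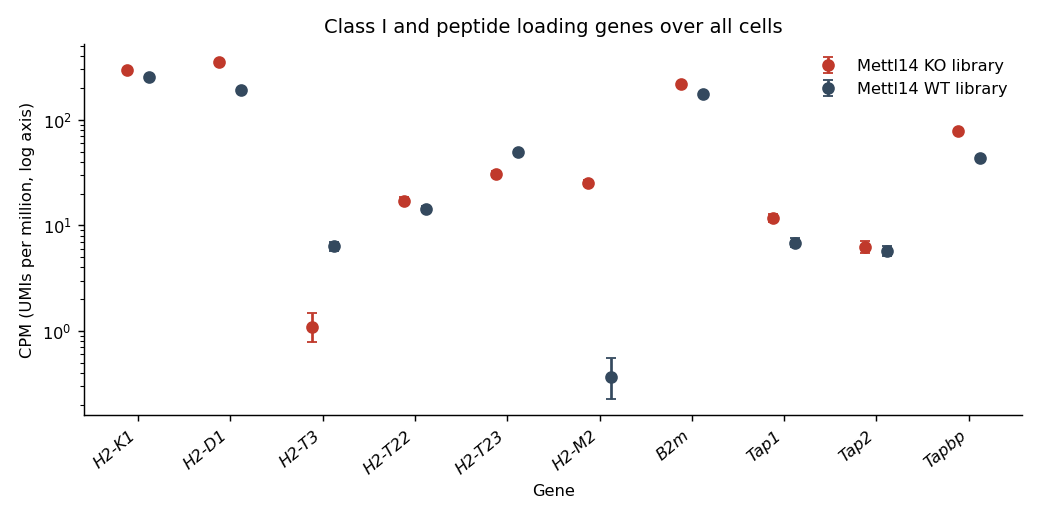
Levels of the 10 genes over all cells, in CPM on a log axis, for the Mettl14 KO library (red, left of each pair) and the Mettl14 WT library (dark blue, right), with exact Poisson 95% intervals. H2-M2 stands at 25.2 CPM in KO and 0.365 CPM in WT, H2-T3 at 1.09 and 6.31 CPM, and H2-D1 lies above H2-K1 in KO only.

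The authors' cell table assigns each cell to 1 of 7 clusters. By fixed marker genes, clusters 1 and 2 were goblet-like (mucus-secreting), cluster 3 cycling-like, cluster 4 colonocyte-like (absorptive), cluster 5 enteroendocrine-like (hormone-secreting) and cluster 6 stromal-like. Scores are mean z scores of the marker genes over the clusters. Cluster 6 scored 2.355 for stromal and 2.33 for tuft genes, and highest of the clusters for immune genes (0.665). Its levels need therefore not be those of stromal cells. Cluster 0 was left unnamed, since its leading genes were pancreatic enzyme genes. Of the marker lists it scored highest for stem genes, at 0.818, against 1.041 for these genes in cluster 3. Pancreatic enzyme genes summed to 105 CPM in KO and 7457 CPM in WT cells of cluster 0. Cells with at least 1% of their UMIs from such genes numbered 0 in KO and 33 in WT. Ratios were taken in the 6 clusters where both libraries had at least 50 cells. They held 816 KO and 1106 WT cells (cluster 0), 755 and 606 (cluster 1), 520 and 704 (cluster 2), 890 and 918 (cluster 3), 490 and 660 (cluster 4), and 151 and 99 (cluster 5). Cluster 6, with 31 KO and 117 WT cells, is given only as levels.

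Cluster 0 held the most members past 1.5-fold, and cluster 2 the fewest. In cluster 0, 6 of 10 members were higher in KO (background 20.2% of measured genes) and 2 lower (13.5%). In cluster 1, 3 of 9 members with at least 50 UMIs were higher (13.6%) and 0 lower (17.5%), and in cluster 2, 0 of 8 were higher (14.9%) and 1 lower (17.7%). Clusters 3 and 4 gave the same counts, 4 of 10 higher (17.8% and 16.6%) and 2 lower (12.4% and 13.8%), for the genes that also passed over all cells. In cluster 5 only 5 members reached 50 UMIs, of which H2-D1 and Tapbp were higher (16.8%) and 0 were lower (11.8%). H2-T3 in clusters 1, 2 and 5, H2-M2 in clusters 2 and 5, and H2-T22, Tap1 and Tap2 in cluster 5 had under 50 UMIs and are not among these counts. All of these counts rest on UMIs summed over cells, in which deeper cells weigh more, and were not repeated at even depth.

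The summed members ran at 910 CPM in KO and 558 CPM in WT in cluster 0, and at 1351 and 914 CPM in cluster 1. They ran at 1092 and 957 CPM in cluster 2, 787 and 559 CPM in cluster 3, 1148 and 948 CPM in cluster 4 and 985 and 689 CPM in cluster 5. The KO level was above the WT level in all 6, by a ratio from 0.19 (0.14 to 0.24) in cluster 2 to 0.70 (0.66 to 0.75) in cluster 0. In cluster 6 the sums were 919 CPM in KO and 1047 CPM in WT, with overlapping intervals.

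H2-D1 was above its WT level in each of the 6 clusters. Its CPM was 249 in KO and 117 in WT in cluster 0, 525 and 276 in cluster 1, and 389 and 261 in cluster 2. It was 256 in KO and 137 in WT in cluster 3, 363 and 235 in cluster 4, and 410 and 216 in cluster 5. The ratios ran from 0.57 (0.49 to 0.66) in cluster 2, just under 1.5-fold, to 1.10 (0.996 to 1.20) in cluster 0. For H2-K1 the CPM was 195 in KO and 158 in WT in cluster 0, 463 and 349 in cluster 1, and 338 and 363 in cluster 2. It was 195 in KO and 179 in WT in cluster 3, 323 and 328 in cluster 4, and 278 and 222 in cluster 5. The H2-K1 ratio was thus above 0 in clusters 0, 1, 3 and 5, with 0.41 (0.34 to 0.48) in cluster 1 the highest, below 0 in cluster 2 at −0.10 (−0.19 to −0.02), and −0.02 (−0.11 to 0.07) in cluster 4. H2-D1 UMIs per H2-K1 UMI were nonetheless higher in KO than in WT in all 6, from 1.12 and 0.716 in cluster 4 to 1.48 and 0.975 in cluster 5, with log2 differences from 0.52 (0.42 to 0.62) in cluster 1 to 0.79 (0.65 to 0.93) in cluster 0. Of the 6 compared clusters, goblet-like cluster 1 or 2 held the highest level of H2-K1 and of H2-D1 in both libraries.

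H2-M2 in KO cells and H2-T3 in WT cells both stood highest in cluster 0. H2-M2 had 558 UMIs (78.6 CPM) in KO cells of cluster 0, against 11 UMIs (0.846 CPM) in WT cells. It had 110 and 2 UMIs in KO and WT cells of cluster 4, 184 and 6 in cluster 3, 52 and 1 in cluster 1, 38 and 2 in cluster 2 and 5 and 0 in cluster 5. At a depth of 3000 UMIs, 16.3% of KO cells in cluster 0 held an H2-M2 UMI, against 5.0% in cluster 4, 4.33% in cluster 3, 1.78% in cluster 2 and 1.34% in cluster 1. The ratio lay between 5.09 (3.14 to 8.19) in cluster 2 and 6.77 (4.88 to 9.83) in cluster 4, and in cluster 5 the level was at least 1.85-fold higher in KO, set against 3 counts over the WT cells. In cluster 0, H2-T3 had 19 UMIs (2.68 CPM) in KO and 175 UMIs (13.5 CPM) in WT. Cluster 3 held 9 and 95 H2-T3 UMIs in KO and WT cells, cluster 4 9 and 60, cluster 2 2 and 27, cluster 1 2 and 14 and cluster 5 0 and 8. The ratio was −2.33 (−3.10 to −1.64) in cluster 0, and in cluster 5 the level was at least 2.40-fold lower in KO against 3 counts over the KO cells. Each of the 6 clusters had H2-M2 above and H2-T3 below its WT level, but the H2-T3 ratio in cluster 4 was 0.28 without the cells that held the colonocyte gene Aqp8, against −1.75 with them. With cells thinned to 3000 UMIs, the H2-T3 ratio without Aqp8 cells was −0.53 (−3.22 to 1.83), on 3 KO and 5 WT UMIs.

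H2-T23 was below its WT level in all 6 clusters, at 57.4 CPM in KO and 90.8 CPM in WT in cluster 2, where it was highest, and 25.7 and 57.0 CPM in cluster 4. Its ratio ran from −1.15 (−1.44 to −0.87) in cluster 4 to −0.51 (−0.70 to −0.32) in cluster 1, and in cluster 5 the interval just reached 0. H2-T22 was 12.96 CPM in KO and 8.16 CPM in WT in cluster 0, a ratio of 0.67 (0.25 to 1.08), and elsewhere its intervals held 0. B2m was above its WT level in all 6, from 144 CPM in KO and 124 CPM in WT in cluster 5, with an interval that held 0, to 262 and 191 CPM in cluster 0, a ratio of 0.46 (0.37 to 0.54). Of the 6 compared clusters, B2m was highest in colonocyte-like cluster 4, at 284 CPM in KO and 232 CPM in WT. In cluster 6 it was at 234 CPM in KO and 410 CPM in WT.

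Among the loading genes, Tapbp was above its WT level in every compared cluster, from 81.2 CPM in KO and 55.1 CPM in WT in cluster 2, a ratio of 0.56 (0.38 to 0.74), to 70.6 and 32.2 CPM in cluster 0, a ratio of 1.13 (0.94 to 1.32). Tap1 was 13.6 CPM in KO and 6.06 CPM in WT in cluster 3, a ratio of 1.17 (0.79 to 1.55), and 15.2 and 7.54 CPM in cluster 0, a ratio of 1.01 (0.60 to 1.42). In clusters 1, 2 and 4 the ratio of Tap1 was 0.54, 0.56 and 0.59, and in cluster 5 it rested on 5 KO and 8 WT UMIs. Tap2 departed from its WT level, in the sense that the interval left out 0, only in cluster 0, with 6.76 CPM in KO and 3.46 CPM in WT, a ratio of 0.97 (0.35 to 1.59).

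**Figure D2:**
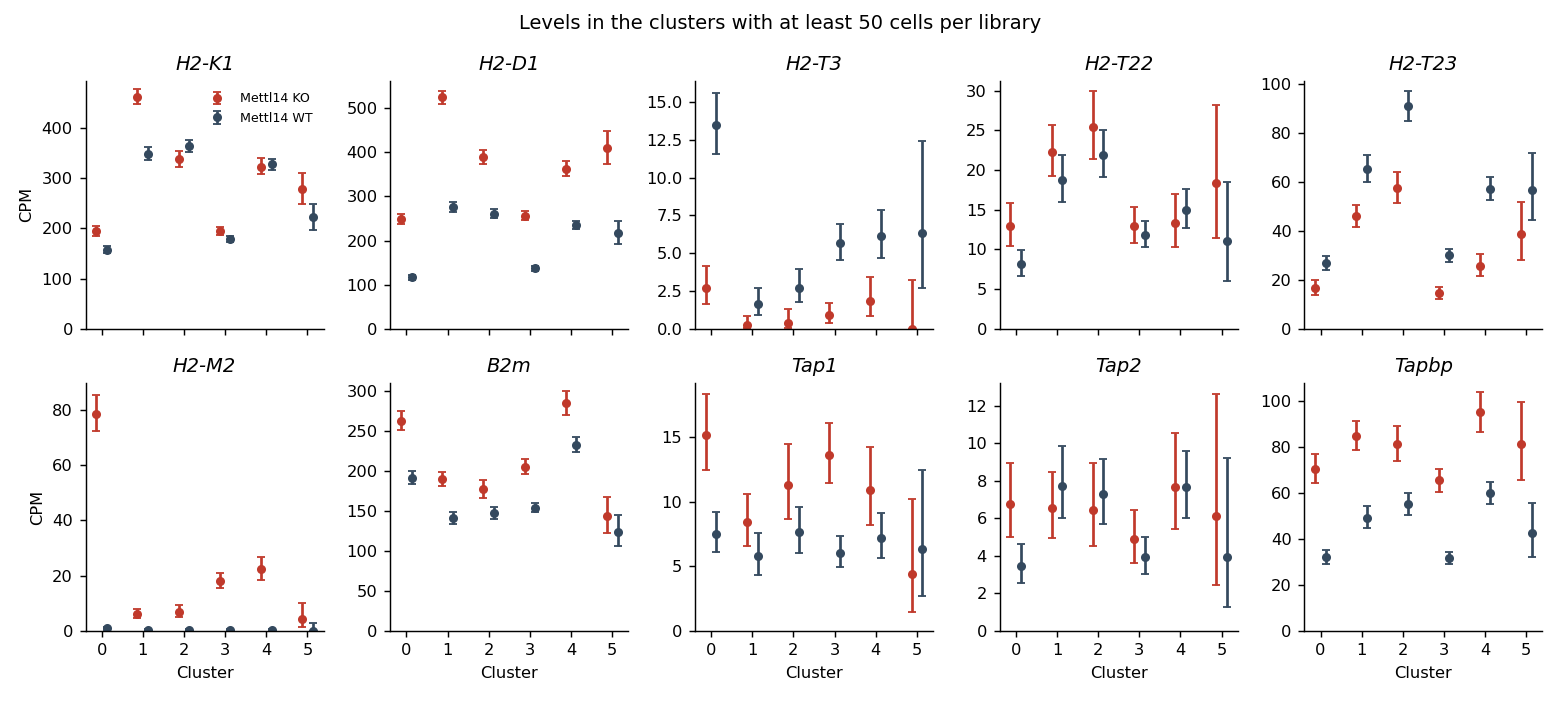
CPM of each gene in the 6 compared clusters (x axis) for Mettl14 KO (red, left) and Mettl14 WT (dark blue, right), with exact Poisson 95% intervals and a separate linear y axis for each gene. H2-D1 and Tapbp are higher in KO in all 6 clusters, H2-T23 is lower in all 6, and H2-M2 reaches 78.6 CPM in KO cells of cluster 0.

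Per cell, the UMIs of H2-K1, H2-D1 and B2m were added after thinning to 3000 UMIs, which kept 3556 KO and 4038 WT cells and left out 97 and 172. The mean was 2.60 UMIs in KO cells and 2.03 in WT cells. Cells with 0 UMIs of the trio made up 13.05% (11.96 to 14.2) of KO cells and 19.96% (18.7 to 21.2) of WT cells, and cells with at least 5 made up 14.4% and 7.45%. The shift was thus seen at the low and the high end of the distribution. In cluster 1 the mean was 3.48 in KO and 2.35 in WT, and 26.3% of KO cells and 10.5% of WT cells held at least 5. In cluster 0 the share at 0 was 15.96% in KO and 27.1% in WT. Cluster 4 was the exception, with a mean of 2.96 in KO and 3.16 in WT although fewer KO cells stood at 0 (10.2% and 15.6%). Without thinning, the summed UMIs of the trio in cluster 4 gave 970.6 CPM in KO and 794.5 CPM in WT (0.29, 0.24 to 0.34). The direction in cluster 4 thus depended on whether cells were brought to even depth.

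**Figure D3:**
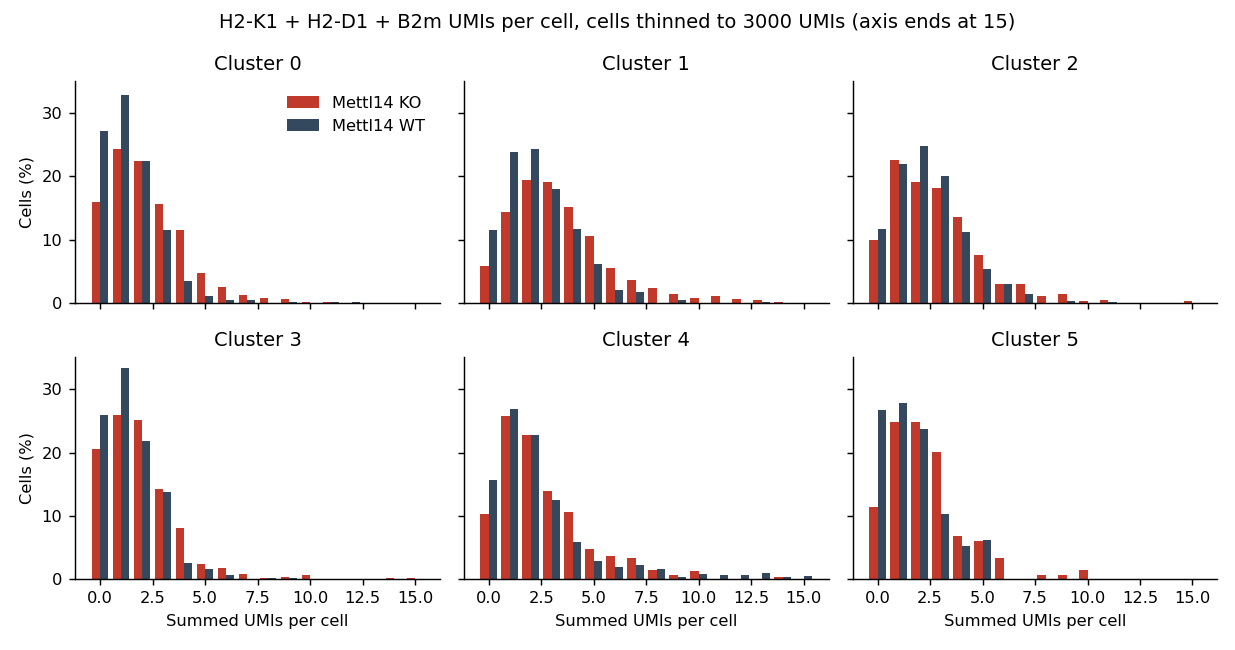
Share of cells (y axis, %) by the summed UMIs of H2-K1, H2-D1 and B2m per cell (x axis) in cells thinned to 3000 UMIs, for Mettl14 KO (red, left bars) and Mettl14 WT (dark blue, right bars) in 6 clusters. The axis ends at 15 UMIs. In cluster 0 the WT bar at 0 holds 27.1% of cells and the KO bar 15.96%, and in cluster 4 WT cells reach the right end.

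The long upper end in WT colonocyte-like cells lay mostly in cells with Aqp8, a water channel of surface colonocytes. This split was chosen after seeing the data. At 3000 UMIs, an Aqp8 UMI was found in 17 of 480 KO cells of cluster 4 (3.54%, 2.08 to 5.61) and in 105 of 639 WT cells (16.4%, 13.6 to 19.5). In the goblet-like clusters, where Aqp8 is not expected, the share was 0.239% in KO and 0.628% in WT. Of the cluster 4 cells with at least 10 UMIs of the trio, 4 of 14 in KO and 40 of 48 in WT had Aqp8.

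Within WT cluster 4, H2-K1 was at 1384 CPM in cells with Aqp8 and 276 CPM in cells without, a log2 ratio of 2.33 (2.13 to 2.52) between them. H2-D1 was at 851 CPM with and 210 CPM without Aqp8, B2m at 733 and 190 CPM, and Tapbp at 190.5 and 46.8 CPM. For H2-T23 the levels were 317 CPM with and 36.2 CPM without, a log2 ratio of 3.13 (2.65 to 3.62), the largest of these 5 genes. In WT cells these 5 genes were thus higher where Aqp8 was found. Within KO cluster 4, H2-K1 was at 627 CPM with and 309 CPM without Aqp8, a log2 ratio of 1.02 (0.46 to 1.54), and H2-D1 at 647 and 351 CPM, a ratio of 0.88 (0.33 to 1.39). H2-T23 had 2 UMIs in the 17 KO cells with Aqp8 and 43 in the 463 without.

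The genotypes therefore compared differently on either side of the split. In cells without Aqp8, H2-K1 was at 309 CPM in KO and 276 CPM in WT (0.16, −0.03 to 0.36), H2-D1 at 351 and 210 CPM (0.74, 0.54 to 0.94), B2m at 292 and 190 CPM (0.62, 0.41 to 0.84), Tapbp at 92.9 and 46.8 CPM (0.99, 0.57 to 1.42), and H2-T23 at 31.0 and 36.2 CPM (−0.23, −0.83 to 0.37). In cells with Aqp8, H2-K1 was at 627 CPM in KO and 1384 CPM in WT (−1.14, −1.71 to −0.62), and H2-T23 rested on 2 KO and 100 WT UMIs (−3.02, −6.08 to −1.13). In these cells, of which 17 were KO, the other intervals held 0. They were −0.39 (−0.96 to 0.13) for H2-D1, −0.27 (−0.86 to 0.27) for B2m and −0.11 (−1.31 to 0.91) for Tapbp. The part of the differing share of Aqp8 cells in the cluster 4 ratios was not tested beyond this split. Without thinning, and without the 30 KO and 145 WT cells of cluster 4 with an Aqp8 UMI, the ratio in cluster 4 was 0.49 for H2-K1, 0.96 for H2-D1, 0.64 for B2m, −0.52 for H2-T23 and 0.28 for H2-T3, which is −1.75 with them. In the thinned cells without Aqp8, H2-T3 rested on 3 KO and 5 WT UMIs (−0.53, −3.22 to 1.83).

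**Figure D4:**
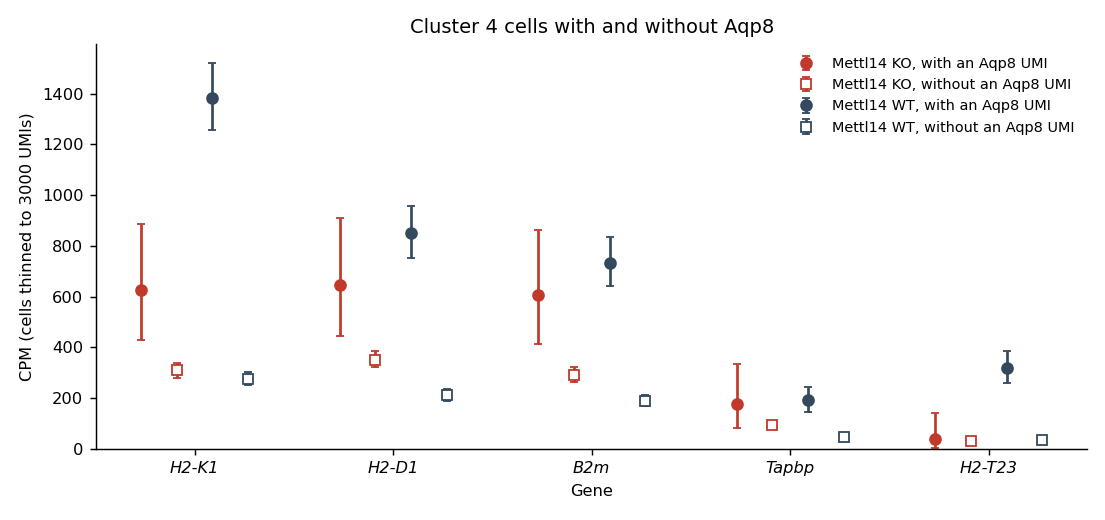
CPM of 5 genes in cluster 4 cells thinned to 3000 UMIs, with (filled circles) and without (open squares) an Aqp8 UMI, for Mettl14 KO (red) and Mettl14 WT (dark blue), with exact Poisson 95% intervals. WT cells with Aqp8 stand highest for H2-K1 (1384 CPM) and H2-T23 (317 CPM), while among cells without Aqp8 the KO level of H2-D1, B2m and Tapbp is the higher.

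KO cells of cluster 0 that held H2-M2 also held more of other class I genes. These 128 of 783 thinned cells had 375 CPM of H2-K1, against 173.5 CPM in the other 655 cells, a log2 ratio of 1.11 (0.82 to 1.40). For H2-D1 the levels were 370 and 237 CPM (0.64, 0.36 to 0.92), for B2m 354 and 265 CPM (0.42, 0.13 to 0.69) and for Tapbp 107 and 67.2 CPM (0.67, 0.13 to 1.18), while the intervals of Tap1 and H2-T23 held 0. A UMI of the chemokine gene Ccl20 was found in 63.3% (54.3 to 71.6) of the cells with H2-M2 and in 13.6% (11.1 to 16.5) of those without, and of the transcription factor gene Spib in 34.4% (26.2 to 43.3) and 7.18% (5.32 to 9.43). Ccl20 and Spib were picked with their values known. H2-T3 in WT cluster 0 was set beside the stem cell marker Lgr5, which had a UMI in 8 of 52 cells with H2-T3 (15.4%, 6.88 to 28.1) and in 27.2% (24.5 to 30.1) of those without. In WT cluster 3 it had a UMI in 4 of 17 cells with H2-T3 (23.5%, 6.81 to 49.9) and in 20.95% (18.3 to 23.8) of those without, and in both clusters the intervals overlapped.

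The rest of the antigen presentation pathway was described by lists. Of 50 measured genes of 7 lists beside the members, 6 were at least 1.5-fold higher in KO and 6 lower, beside the backgrounds of 17.0% and 16.7%. Of the 5 immunoproteasome and PA28 genes, which cut peptides for class I, 1 was higher and 0 lower. Psmb8, an interferon-inducible catalytic subunit, had 20.5 CPM in KO and 13.5 CPM in WT, a ratio of 0.60 (0.46 to 0.75). Psmb9, which lies head to head with Tap1 and overlaps it, had 12.5 CPM in KO and 14.8 CPM in WT, a ratio of −0.24 (−0.41 to −0.08) and thus of the opposite sign to Tap1. Psmb10 had 97.2 CPM in KO and 73.4 CPM in WT (0.40), Psme2 169.6 and 142 CPM (0.26) and Psme1 158 and 155 CPM (0.02). The 3 constitutive subunits that the immunoproteasome replaces passed the size in neither direction, with ratios from 0.02 for Psmb7 to 0.45 for Psmb5.

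Of the 6 genes for peptide trimming and loading chaperones, 0 were higher and 1 lower. The one lower was Lnpep, an aminopeptidase of endosomes, with 39.2 CPM in KO and 79.4 CPM in WT, a ratio of −1.02 (−1.10 to −0.93). Pdia3, the disulfide isomerase ERp57 that pairs with tapasin, had 604 CPM in KO and 458 CPM in WT (0.40), and Calr, calreticulin, had 695 and 556 CPM (0.32). Erap1, which trims peptides in the endoplasmic reticulum, had 45.7 CPM in KO and 38.1 CPM in WT (0.26), Tapbpl 13.1 and 9.80 CPM (0.42) and Canx 235 and 277 CPM (−0.24).

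Of 14 measured transcription factor genes, 2 were higher and 1 lower, with a median ratio of 0.03. Stat2 had 8.13 CPM in KO and 4.75 CPM in WT, a ratio of 0.78 (0.54 to 1.01), and its partner in interferon signalling Irf9 had 15.2 and 8.99 CPM, a ratio of 0.76 (0.59 to 0.93). Irf2, which binds the same kind of promoter element, had 47.8 CPM in KO and 76.7 CPM in WT, a ratio of −0.68 (−0.76 to −0.60). Irf1, an interferon-induced activator, had 19.5 CPM in KO and 15.96 CPM in WT (0.29) and the NF-κB subunit Rela 23.9 and 17.6 CPM (0.44). Nlrc5, the transactivator of class I genes, had 6 UMIs in KO and 13 in WT, under the minimum of 50, so no difference was detectable at this depth. Of 9 interferon receptor and kinase genes, 1 was higher in KO and 0 lower. Ifnar2, a chain of the type I interferon receptor, had 12.3 CPM in KO and 7.14 CPM in WT, a ratio of 0.78 (0.59 to 0.97), and the type II receptor chain Ifngr1 had 102 and 69.6 CPM (0.55). No Ifng UMI was found in either library.

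Among 10 measured relatives of the members outside the list, 1 was higher in KO and 4 lower, with a median ratio of −0.29. H2-Q10, known as a secreted class I molecule of the liver, had 2 UMIs in KO and 106 in WT (−5.05, −8.11 to −3.16), and H2-Q1 had 6 and 69 UMIs (−2.85, −4.34 to −1.65). Cd1d1, which presents lipids to natural killer T cells, had 4.36 CPM in KO and 8.74 CPM in WT, a ratio of −1.004 (−1.27 to −0.75). H2-Q7 was the one higher, with 5.61 CPM in KO and 3.50 CPM in WT, a ratio of 0.68 (0.40 to 0.96). The H2-Q genes are close relatives of each other, and whether reads were split among them was not measured. Of the 3 measured NKG2D ligand genes, which mark stressed cells, 1 was higher, H60c with 58 UMIs in KO and 49 in WT (0.92, 0.35 to 1.5).

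**Figure D5:**
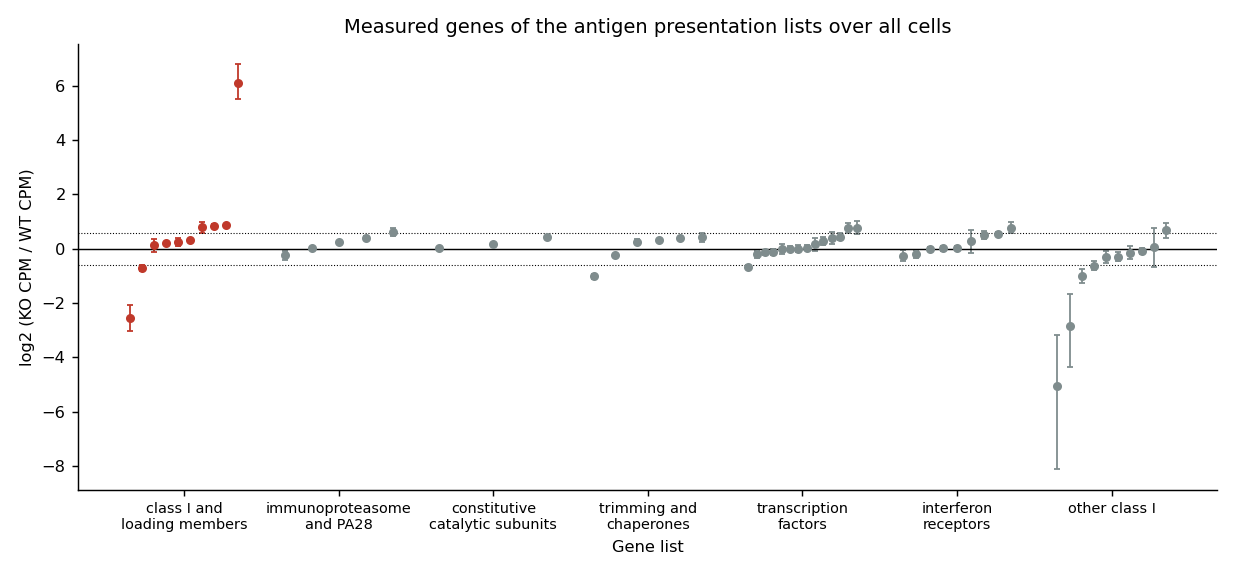
Log2 ratios (KO CPM over WT CPM, y axis) of the measured genes of 7 lists (x axis), sorted within each list, with exact conditional 95% intervals. The 10 members are red, other genes grey, and dotted lines mark 1.5-fold. H2-M2 stands at 6.11 and H2-T3 at −2.53, while the proteasome, chaperone and receptor genes lie mostly between the lines.

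Genes whose log2(CPM + 1) followed that of the summed members most closely were sought over the 12 pairs of cluster and library. Plec, which encodes the cytoskeletal linker plectin, had the highest Pearson correlation (0.957), followed by Shisa5 (0.946), Gmfg (0.931), Parm1 (0.926) and Stim1 (0.919). Over all cells Plec had 84.9 CPM in KO and 64.4 CPM in WT, and Parm1 135 and 71.7 CPM. The 12 points share the libraries, the totals and the clustering, so the correlations describe these points only.

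Markers of other cell types also differed between the libraries. The summed level of 17 immune markers was 124 CPM in KO and 93.2 CPM in WT over all cells, and in the 6 compared clusters it lay between 62.7 and 289 CPM in KO and between 38.6 and 152 CPM in WT, higher in KO in each. In cluster 6 it was 83.6 CPM (10 UMIs) in KO and 2842 CPM (1810 UMIs) in WT. Of the 11 measured immune markers, 5 were at least 1.5-fold higher in KO and 2 lower, beside the backgrounds of 17.0% and 16.7%. Among the higher was the macrophage gene C1qa, with 966 UMIs in KO and 802 in WT (0.95). The neutrophil genes S100a8 (151 UMIs in KO, 737 in WT, −1.61) and S100a9 (195 and 931 UMIs, −1.58) were the 2 lower. The T and natural killer cell markers Cd3e and Nkg7 had 4 and 2 UMIs in KO and 2 and 4 in WT, and Cd8a and Gzma had 0 in KO and 2 and 38 in WT. Without the 258 KO and 257 WT cells with at least 2 immune UMIs, the ratio was 0.90 for H2-D1, 0.22 for H2-K1, 0.83 for Tapbp, 0.81 for Tap1, 6.61 for H2-M2, −2.66 for H2-T3 and −0.70 for H2-T23. Stromal markers summed to 21.3 CPM in KO and 119 CPM in WT over all cells (−2.48), and to 1.55 and 42.5 CPM in cluster 0 (−4.78), and were lower in KO in each cluster. Tuft cell markers summed to 3.59 CPM in KO and 9.95 CPM in WT over all cells (−1.47), but to 5.25 and 0.925 CPM in cluster 1 (2.51). The part of stromal and tuft cell RNA in the ratios of the members was not tested.

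Cells were also split by sex-linked RNA into 1696 female KO and 1689 female WT cells, and 996 male KO and 1540 male WT cells. The ratio of H2-D1 was 1.01 (0.95 to 1.06) among female cells and 0.72 (0.65 to 0.78) among male cells. For B2m it was 0.49 (0.43 to 0.56) among female cells and 0.09 (0.01 to 0.17) among male cells. H2-M2 stood at 6.64 and 6.53, H2-T23 at −0.71 and −0.77, Tapbp at 0.92 and 0.81 and H2-T3 at −2.95 and −1.95. All 4 of these and H2-D1 kept their direction and their size past 1.5-fold in cells of either sex. Whether the ratios differ between the sexes was not tested, since each sex came from the same pair of libraries.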

How the data were processed

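The deposited data were raw UMI counts for each gene in each retained cell, made by the authors with bcl2fastq and Cell Ranger on mm10 per the submitters' processing notes, together with a table of each cell's library and cluster. Versions, the cell filter and the clustering method are not given in the sources used here. Here, counts were summed over cells per library, or per cluster and library, and divided by all UMIs of those cells. Intervals (95%) are exact Poisson for CPM, conditional binomial for ratios and Clopper-Pearson for shares of cells, and cover counting error only. PCR copies were collapsed by UMI. Genes with 50 or more UMIs in all were called measured, and a level of 0 was set against 3 counts over the group. Depth was evened by drawing 3000 UMIs per cell.

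The members and lists were chosen with earlier results of these data known. Named were all members, measured genes of the immunoproteasome, loading and transcription factor lists, up to 4 of each other list by size of ratio, and the 5 genes most alike in log2(CPM + 1) among those with at least 20 CPM in a library. Some genes that met this rule are not reported here. The Aqp8 split, the motifs and the genes looked for beside H2-M2 and H2-T3 were chosen after seeing the data. Female cells had at least 3 Xist UMIs and no Y-linked UMI, and male cells the reverse. No doublet caller was run. Cells with both kinds of UMI (304 KO, 437 WT) were left out as an alternative. Alternatives changed the totals, the scaling, the fold, the minimum count and the cells kept. Clusters were named from fixed markers. Positions are from GENCODE vM21 (GRCm38), counted from 1, and promoter windows from RefSeq. Python 3.11.15, numpy 2.4.6, scipy 1.17.1, pandas 2.3.3 and matplotlib 3.10.9 were used, and the intervals were tested on simulated data.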

Additional observations from a re-analysis of the deposited data

Results flagged for a closer look

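H2-K1 in cluster 2 had a log2 ratio of −0.105 (−0.19 to −0.02), below 0, while its intervals in clusters 0, 1, 3 and 5 lay above 0. Clusters 1 and 2 are both goblet-like, and in cluster 1 the ratio was 0.41 (0.34 to 0.48). The difference between the clusters was not tested, as each comes from the same 2 libraries. Leaving out cells with at least 2 immune UMIs gave −0.13 in cluster 2.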

How the results depend on the processing

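No paired analysis was possible because each genotype has 1 library and the labels carry no replicate numbers, and for the same reason no library could be left out. Over 14 alternatives per gene, the ratio over all cells ranged from 0.72 to 1.01 for H2-D1, 0.05 to 0.31 for H2-K1, −3.36 to −1.95 for H2-T3, −1.01 to −0.61 for H2-T23, 5.11 to 6.73 for H2-M2, 0.09 to 0.49 for B2m, 0.71 to 0.92 for Tapbp and 0.52 to 0.94 for Tap1. Of these 140 values over all cells, 39 moved beyond counting error and 101 did not. None of the 140 values changed the sign of a member past 1.5-fold, while Tap2 ranged from −0.41 to 0.25. The alternatives that changed only the minimum count repeat the main values, since every member passed it, and are among the 101. At 2-fold in place of 1.5-fold, 1 member was higher (4 at 1.5-fold) and 1 lower (2 at 1.5-fold), and of the other lists 0 genes were higher and 4 lower (6 and 6 at 1.5-fold). The share of all measured genes past 2-fold was not computed, so the 2-fold counts stand without a background. The median of the members was 0.39 in female cells, against 0.29 in all cells. Within clusters the alternatives changed only the totals or the cells kept, and did not include thinning or the mean of per-cell CPM. In the clusters 8 of 183 values moved beyond counting error, and 1 reversed, H2-T3 in cluster 4 at 0.28 without Aqp8 cells, a split chosen after seeing the data. The cause was not tested. Other scalings shifted all ratios by −0.07 (totals without mitochondrial, ribosomal-protein and haemoglobin genes) and 0.04 (median of ratios). Limits are the single library per genotype, whose animals, preparation and sequencing cannot be told apart from the genotype, the lower depth of KO cells, and low counts of H2-T3, H2-M2 in WT, Tap1 and Tap2 within clusters.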
